A study of Mus musculus with 4 samples.

Results

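The 42 antioxidant and redox genes described here make and recycle glutathione and thioredoxin, remove peroxides and superoxide, supply NADPH, detoxify quinones and carbonyls, and handle haem, iron and metals. They were listed by name, without glutathione S-transferases and without the regulators Nfe2l2 and Keap1, and were found through the gene symbol that the platform annotation gives each probe set. Of the 42, 37 had a probe set naming that gene alone, out of 13674 genes so named on the arrays. The probe set with the highest mean signal gave 1 value per gene and array type.

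RNA came from whole skin of newborn FVB/N mice at postnatal day 0. Loricrin knockout skin, which lacks the main protein of the cornified envelope, had 2 arrays, and wildtype skin of the same strain had 2 arrays. Each genotype had 1 array on each of 2 array types that carry different probe sets. The labels name no allele, do not say how many animals an array holds, and do not say whether the arrays titled as replicates used RNA of other animals. The knockout and wildtype arrays of each type are compared to see how RNA of newborn skin without loricrin differs.

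Cells keep oxidants in check with paired systems. Superoxide dismutases turn superoxide into hydrogen peroxide, which catalase splits without a reducing partner. Glutathione peroxidases and peroxiredoxins also remove it, drawing on glutathione, thioredoxin and finally NADPH. The transcription factor Nrf2, released from Keap1 under oxidative or electrophilic stress, binds antioxidant response elements near many of these genes, and in keratinocytes it also acts on barrier genes.

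Values are linear MAS5 signals, with both arrays of a type brought to an equal 2% trimmed mean. Signals under a floor (77.6 for the first type, 133 for the second) were raised to it before the log2 ratio, knockout over wildtype, was formed. Each type has a single array per genotype and so allows no test of its own. A gene is called higher or lower only by size, at least 2-fold. The log2 ratio of a gene had an SD of 0.40 between the array types over the 1081 genes above the floor on both, and of 0.43 between probe sets of 1 gene on the first type. Ratios within 0.79, which is 2 of the first SD, are read here as within that spread, which includes differences between probe sets and holds no known spread between animals.

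Loricrin (Lor) read 2013 in the knockout array and 41224 in the wildtype array of the first type, a log2 ratio of -4.36. The second type has no value for it here, so it checks the labels of the first type only. Several epidermal markers were bright, with Krt1 at 18714 in knockout skin against 26636 in wildtype skin on the first type. The basal keratin Krt15 read 26582 in knockout skin against 22304 in wildtype skin on the second type. Of 7 such genes above the floor on the first type 5 ratios were below 0 and 2 above, and 1, Trp63, passed 2-fold, at 1906 in knockout skin and 913 in wildtype skin. First-type probe sets of Krt5, Krt14 and Krt15 lay below the floor in both arrays. The bright second-type probe set of Krt15 carries a suffix for shared sequence. Xist read 857 in knockout skin and 24.7 in wildtype skin, and the Y-linked Eif2s3y read 42.7 in knockout skin against 1071 in wildtype skin, so sex and genotype cannot be told apart. The ratio of 3' to 5' signal of Actb control probe sets was 2.63 in knockout skin and 2.16 in wildtype skin on the first type, and the second gave 2.76 in knockout skin against 2.31 in wildtype skin. The same ratio for Gapdh lay between 1.07 and 1.18 on all 4 arrays. The 9 bacterial spike-in probe sets had mean log2 ratios of -0.69 and -0.65 on the first and second type. Single spike-in probe sets ranged from -0.85 to -0.54 on the first and from -1.02 to -0.06 on the second. The size of the shift they give is therefore loosely fixed, above all on the second type. Scaling on them puts the median gene at 0.70 and 0.65, so every ratio here is relative to the typical gene of its type.

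Most of these genes differed little between loricrin knockout and wildtype skin. On the first type 35 genes had a probe set and 32 a mean signal above the floor. Of these 32, 1 was at least 2-fold lower in knockout and none was 2-fold higher, 3.12% in all, where 3.02% of the 5653 genes above the floor were called either way (1.84% lower and 1.19% higher). On the second type 14 had a probe set and 8 lay above the floor. Of those, 1 was 2-fold lower and none higher, against 5.14% of 5137 genes called either way (2.82% lower and 2.32% higher). A count of 1 in 8 is too small to set against that share.

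The median log2 ratio of the 32 genes was -0.02, with the middle of the distribution between -0.33 and 0.30, and that of all 5653 genes was 0.02, with its middle between -0.23 and 0.26. On the second type the medians were 0.06 for the 8 genes and 0.01 for all. At a milder 1.5-fold, 4 of the 32 were above it (12.5%, against 6.24% of all genes) and 3 below (9.38%, against 6.76%). The 4 were Gclc, Cat, Akr1b8 and Mt2, and the 3 were Sod3, Srxn1 and Gpx3. Cat and Srxn1 count through their brighter probe sets, and their other ones above the floor had ratios of -0.21 and -0.28. On the second type 0 of 8 were above it (against 9.05% of all genes) and Slc7a11 alone below (against 10.3%). These shares were not tested against the background.

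**Figure D1:**
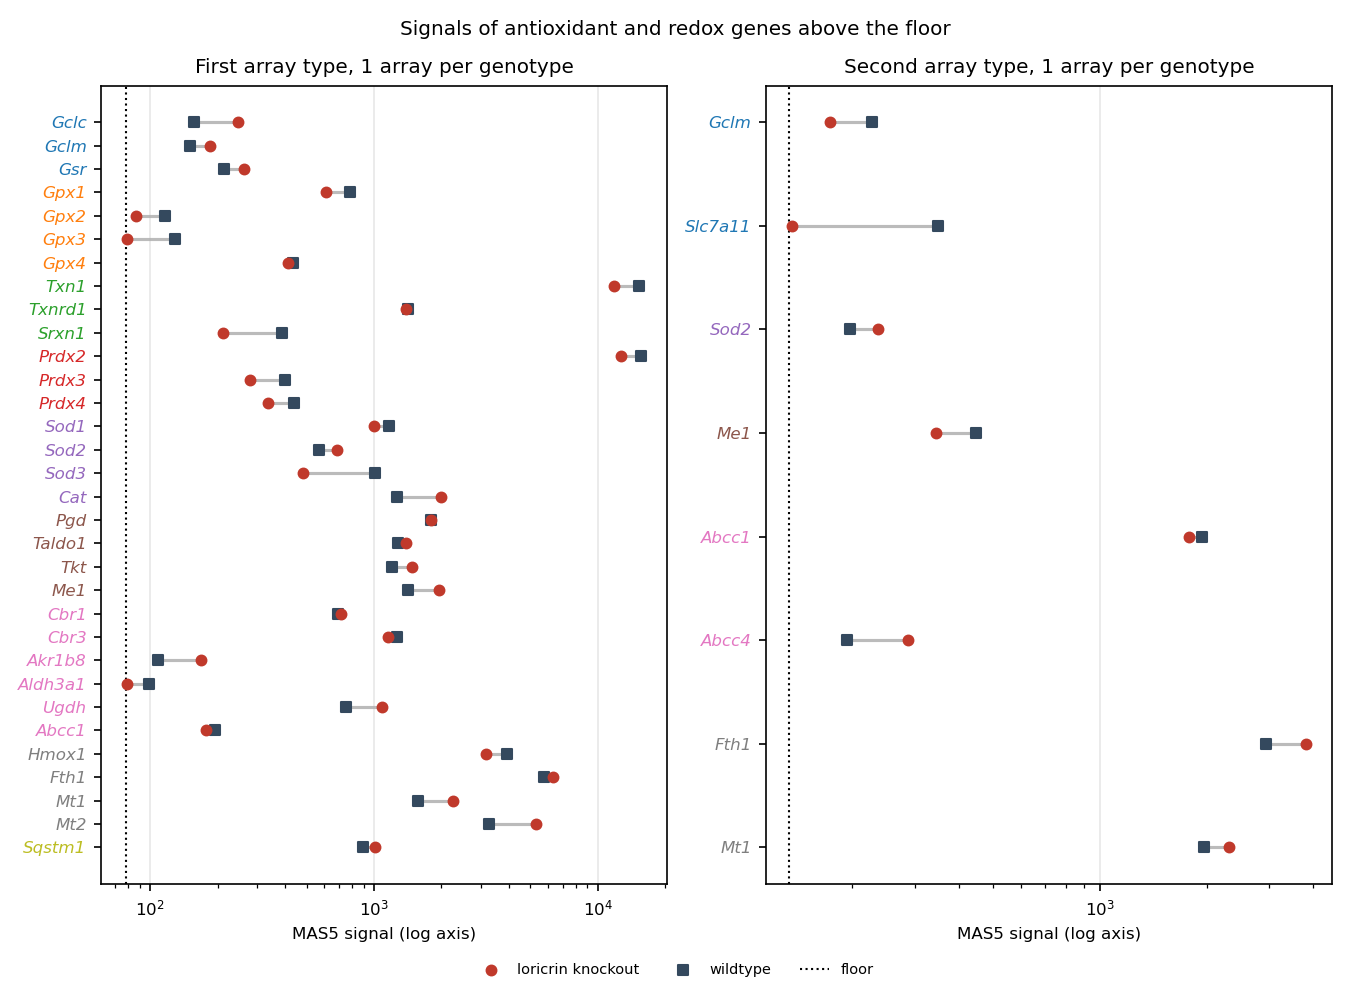
MAS5 signal on a log axis for each antioxidant and redox gene whose mean lay above the floor, 32 on the first array type and 8 on the second. Red circles are the loricrin knockout array and dark squares the wildtype array. The dotted line is the floor and label colours mark role groups. Sod3 and Slc7a11 show the widest gaps on their types, and the knockout signal of Slc7a11 sits at the floor line.

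Among genes that make and recycle glutathione, the largest difference was in Slc7a11, the cystine importer of system xc-, which supplies the cysteine for glutathione. On the second type it read 135 in knockout skin and 350 in wildtype skin, a log2 ratio of -1.37 or 2.59-fold lower. The knockout value stands just above the floor of 133. On the first type its probe set read 8.59 in knockout skin against 27.5 in wildtype skin, both below the floor, so that type gives no ratio. The ratio was -0.85 with the floor value added as a pseudocount and -0.72 under spike-in scaling, both short of 2-fold.

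The promoter of Slc7a11 is shown because Slc7a11 is one of the pair of genes past 2-fold, and because in mouse cells this gene is known to respond to amino acid shortage through ATF4 as well as to Nrf2. The window covers 250 bases before to 50 after the RefSeq start on GRCm38.p6, chr3:50443564-50443863, minus strand, written 5' to 3' along the gene. Capitals mark the letters TGATGNAA, the core of the amino acid response element, searched on both strands.
Slc7a11: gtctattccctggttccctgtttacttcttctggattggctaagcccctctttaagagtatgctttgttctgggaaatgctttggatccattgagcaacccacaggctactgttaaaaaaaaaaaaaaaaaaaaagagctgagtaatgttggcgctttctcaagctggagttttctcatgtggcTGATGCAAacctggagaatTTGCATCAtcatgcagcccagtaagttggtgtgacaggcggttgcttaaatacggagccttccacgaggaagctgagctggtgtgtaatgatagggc
The window holds 2 matches, with left ends at positions -66 and -47 from the start, the second on the opposite strand. Of 32851 promoter windows in the table, 3.97% hold at least 1 match. A match is a run of letters and not a measured binding site.

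The rate-limiting step of glutathione synthesis is carried out by glutamate-cysteine ligase, whose catalytic subunit is Gclc and whose modifier subunit is Gclm. Gclc read 248 in knockout skin and 158 in wildtype skin on the first type, a log2 ratio of 0.65. Its second-type probe set lay below the floor in both arrays. Glutathione reductase (Gsr), which returns oxidised glutathione to its reduced form with NADPH, read 264 in knockout skin against 214 in wildtype skin, a ratio of 0.30.

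Gclm is measured on both types, with opposite signs. Spike-in scaling lifts both types by a similar amount and puts both ratios above 0 (0.98 on the first type, 0.26 on the second). That shift does not bring the types closer. It read 186 in knockout skin and 151 in wildtype skin on the first type, a log2 ratio of 0.30. On the second it read 173 in knockout skin against 227 in wildtype skin, a ratio of -0.39. By these probe sets the knockout array was the higher one on the first type and the lower one on the second. A dimmer second-type Gclm probe set read 96.9 in knockout skin and 47.0 in wildtype skin, both below the floor, so it gives no ratio. The mean over both types was -0.05 (SE 0.25, limma adjusted p = 0.972, n = 2 arrays per genotype), and 0.62 under spike-in scaling. Its promoter, chr3:122245307-122245606 on GRCm38.p6, plus strand, is shown with the antioxidant response element core TGACNNNGC in capitals, searched on both strands.
Gclm: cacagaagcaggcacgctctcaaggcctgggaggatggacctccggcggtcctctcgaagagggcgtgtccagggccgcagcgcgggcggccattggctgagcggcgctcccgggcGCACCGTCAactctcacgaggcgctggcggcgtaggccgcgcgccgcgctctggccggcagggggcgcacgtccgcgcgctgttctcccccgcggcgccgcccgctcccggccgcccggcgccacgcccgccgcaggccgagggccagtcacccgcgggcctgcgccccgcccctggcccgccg
The single match lies on the opposite strand, with its left end at position -134 from the start.

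All 4 glutathione peroxidases measured on the first type had ratios below 0, from -0.71 to -0.07, but under spike-in scaling 3 of them were positive (Gpx1 0.34, Gpx2 0.26, Gpx4 0.61) and Gpx3 stood at -0.02. None passed 2-fold, and all 4 lay under the median gene in both cases. Gpx1, the main cytosolic enzyme, read 611 in knockout skin and 778 in wildtype skin. Gpx4, which reduces lipid peroxides within membranes and protects cells from ferroptosis, read 413 in knockout skin against 435 in wildtype skin, one of the smallest differences of the list.

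Gpx3, the secreted peroxidase found in plasma, had the widest gap of the family, 79.0 in knockout against 129 in wildtype, a log2 ratio of -0.71. Gpx2, known mainly from epithelia such as the gut, read 86.1 in knockout skin and 116 in wildtype skin. Both knockout signals stand close to the floor of 77.6. None of the 4 has a probe set naming it alone on the second type, so none of these ratios has a repeat.

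In the thioredoxin system all 3 ratios were below 0, though those of Txn1 and Txnrd1 turned positive under spike-in scaling. Thioredoxin itself (Txn1), a small protein that reduces disulfides, read 11789 in knockout skin against 15283 in wildtype skin, a log2 ratio of -0.37 that shrank to -0.08 under quantile normalization and was 0.31 under spike-in scaling. Its reductase Txnrd1, a selenoprotein that recharges it with NADPH, was nearly level, at 1389 in knockout skin and 1419 in wildtype skin, a ratio of -0.03 (0.66 under spike-in scaling).

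Sulfiredoxin (Srxn1), which restores over-oxidised peroxiredoxins and is a well-known Nrf2 target in mouse cells, read 211 in knockout skin against 387 in wildtype skin. That log2 ratio of -0.87, a 1.83-fold difference, lay just short of 2-fold and was one of 2 on the first type beyond 0.79. Srxn1 was below 0 under all scalings, at -0.19 under spike-in scaling. A second Srxn1 probe set of the same type read 118 in knockout skin and 143 in wildtype skin, a ratio of -0.28. The promoter, chr2:152105274-152105573 on GRCm38.p6, plus strand, is shown with the TGACNNNGC core in capitals.
Srxn1: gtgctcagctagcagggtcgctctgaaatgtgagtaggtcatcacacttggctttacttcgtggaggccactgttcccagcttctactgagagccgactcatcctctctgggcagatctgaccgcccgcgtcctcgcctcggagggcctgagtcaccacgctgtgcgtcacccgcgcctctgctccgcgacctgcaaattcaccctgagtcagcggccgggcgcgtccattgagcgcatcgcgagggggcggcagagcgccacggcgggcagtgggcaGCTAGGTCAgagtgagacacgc
Its match is on the opposite strand and has its left end at position 29 from the start.

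Peroxiredoxins, abundant thiol peroxidases that thioredoxin or glutathione recharges, were measured for 3 of 6 genes, and all 3 ratios were below 0 but turned positive under spike-in scaling. Prdx3, the mitochondrial member, read 280 in knockout skin against 399 in wildtype skin, a log2 ratio of -0.51. Prdx4, the endoplasmic reticulum member and an X-linked gene, read 335 in knockout skin and 437 in wildtype skin, a ratio of -0.39. Under spike-in scaling these ratios became 0.17 and 0.30, below the median gene.

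Prdx2, the cytosolic peroxiredoxin that is plentiful in red cells, read 12676 in knockout skin against 15673 in wildtype skin, a ratio of -0.31 (0.00 with quantile normalization, 0.38 with spike-in scaling). That probe set carries a shared-sequence suffix. Another first-type probe set and the second-type one lay below the floor in both arrays. A dimmer first-type probe set of Prdx2 without such a suffix read 224 in knockout skin and 243 in wildtype skin, a ratio of -0.11. The direction for these 3 genes therefore depends on the scaling, and for the bright Prdx2 also on how bright probe sets are treated. The red cell list stood lower in knockout too, with a summed signal over 8 genes of 5996 in knockout skin against 22041 in wildtype skin. Of its 5 genes above the floor 3 were 2-fold lower and 1 higher, and its part in the Prdx2 value was not tested. Prdx1 had only probe sets that the annotation shares with the predicted gene Gm21399 and takes no value, and Prdx5 and Prdx6 are not analysed here.

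The gene past 2-fold on the first type was Sod3, the extracellular superoxide dismutase, a secreted enzyme that binds to heparan sulfate in connective tissue matrix. It read 480 in knockout skin and 1009 in wildtype skin, a log2 ratio of -1.07 or 2.10-fold lower. Sod3 remained below 0 under all scalings, between -1.14 under loess and -0.38 under spike-in scaling, and was -0.96 with the floor value added as a pseudocount, so the 2-fold call does not hold under the last pair. It has 1 probe set and no second-type value.

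Dermal matrix genes were low in the same knockout array. Of the 14 measured dermal fibroblast and matrix genes 11 were 2-fold lower and none higher, with a median of -2.13, and the summed signal over these 14 was 5614 in knockout skin against 13587 in wildtype skin. Col1a1, a fibrillar collagen chain, read 172 in knockout skin and 1545 in wildtype skin, while Dcn, also of fibroblasts, read 2462 in knockout skin against 2556 in wildtype skin. The part of this list in the Sod3 value was not tested. In whole skin, fewer cells of a type and less RNA per cell cannot be told apart.

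The intracellular dismutases differed less. Sod1, the cytosolic copper-zinc enzyme, read 1001 in knockout skin and 1169 in wildtype skin, a ratio of -0.22 (0.46 under spike-in scaling). Its second-type probe set lay below the floor in both arrays. Sod2, the mitochondrial manganese enzyme, was measured on both types with nearly the same ratio. It read 685 in knockout skin against 569 in wildtype skin on the first type and 237 in knockout skin and 197 in wildtype skin on the second, log2 ratios of 0.27 and 0.26. The knockout array was the higher one on both types, but the mean of 0.27 did not pass the test (SE 0.24, limma adjusted p = 0.785).

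Catalase (Cat), the peroxisomal enzyme that splits hydrogen peroxide, read 2004 in knockout skin against 1269 in wildtype skin on its brighter probe set, a log2 ratio of 0.66. Its other probe set read 688 in knockout skin and 794 in wildtype skin, a ratio of -0.21. The pair point in opposite directions, and their median is 0.23, so Cat has no settled direction in these arrays. Red cells also carry much catalase. The red cell sums given with Prdx2 were lower in knockout skin, while the brighter Cat probe set was higher there. The part of the red cell list in the Cat value was not tested.

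**Figure D2:**
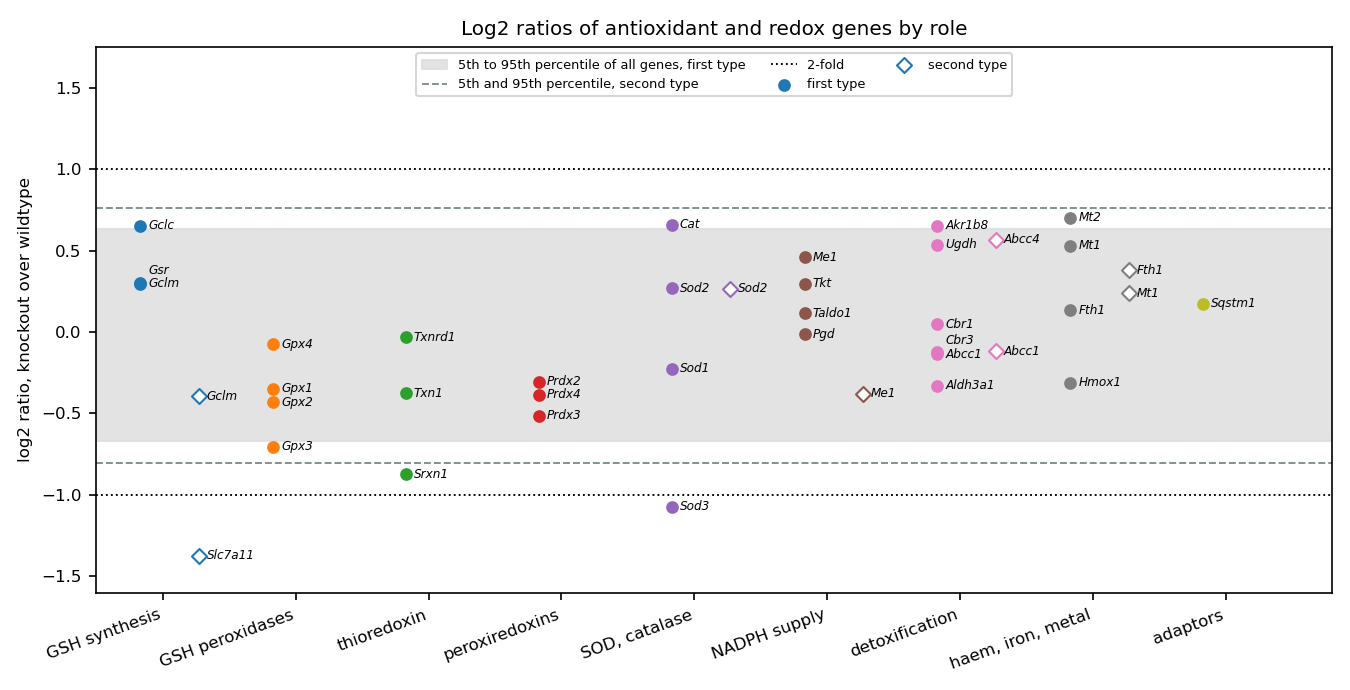
Log2 ratio of knockout over wildtype for each gene above the floor, by role, with filled circles for the first array type and open diamonds for the second. The grey band spans the 5th to 95th percentile of all genes on the first type (-0.67 to 0.63), dashed lines those of the second (-0.81 to 0.76) and dotted lines 2-fold. Only Sod3 and Slc7a11 lie beyond 2-fold, and the peroxidases, thioredoxin genes and peroxiredoxins shown sit below 0 under this scaling, but under spike-in scaling 8 of these 10 turn positive and only Gpx3 and Srxn1 do not.

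NADPH, which feeds both the glutathione and the thioredoxin systems, comes largely from the pentose phosphate pathway and malic enzyme. No gene of this group passed 2-fold. Phosphogluconate dehydrogenase (Pgd), an oxidative step of the pathway, was level at 1793 in knockout skin against 1808 in wildtype skin. Its non-oxidative enzymes Taldo1 and Tkt had log2 ratios of 0.12 and 0.30, with Tkt at 1476 in knockout skin and 1202 in wildtype skin. The second-type probe set of Tkt lay below the floor in both arrays. G6pdx, the first enzyme, is not analysed here.

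Malic enzyme (Me1), which makes NADPH from malate and feeds lipid synthesis as well, had ratios of opposite sign on the array types. Under spike-in scaling both were lifted above 0 (1.15 on the first type, 0.27 on the second) without coming closer. Me1 was brighter on the first type. It read 1945 in knockout skin against 1416 in wildtype skin on the first type, a log2 ratio of 0.46. On the second it read 345 in knockout skin and 448 in wildtype skin, a ratio of -0.38. The mean was 0.04 (SE 0.26, limma adjusted p = 0.981), and 0.71 under spike-in scaling. The second-type probe set carries a suffix for reduced specificity. One of its 2 listed promoter windows, chr9:86695865-86696164 on GRCm38.p6, minus strand, is shown because Me1 is, with Gclm, the other gene whose types differed in sign, with the TGACNNNGC core in capitals.
Me1: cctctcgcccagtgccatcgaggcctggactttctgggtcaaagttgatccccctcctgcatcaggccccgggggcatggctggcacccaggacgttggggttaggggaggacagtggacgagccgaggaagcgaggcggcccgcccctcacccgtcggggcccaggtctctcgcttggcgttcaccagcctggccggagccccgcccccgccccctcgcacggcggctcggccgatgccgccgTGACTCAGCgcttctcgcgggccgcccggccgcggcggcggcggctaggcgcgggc
The match begins at position -6, on the strand of the gene.

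Enzymes that detoxify quinones, carbonyls and epoxides had ratios on both sides of 0. Of the 6 above the floor on the first type 3 ratios were above 0 and 3 below, with a median of -0.04, but under spike-in scaling all 6 were above 0, from 0.34 for Aldh3a1 to 1.34 for Akr1b8. None passed 2-fold under the scaling used. Akr1b8, an aldo-keto reductase, had the highest, 170 in knockout against 108 in wildtype, a ratio of 0.65. Ugdh, which makes the UDP-glucuronate used for glucuronidation and for hyaluronan, read 1090.4 in knockout skin against 751 in wildtype skin, a ratio of 0.54.

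The carbonyl reductases were nearly level. Cbr1 read 716 in knockout skin and 694 in wildtype skin, and Cbr3 read 1161 in knockout skin against 1263 in wildtype skin. Aldh3a1, an aldehyde dehydrogenase best known from the cornea, read 78.7 in knockout skin and 99.0 in wildtype skin, the knockout signal just above the floor. Nqo1, the quinone reductase often used as the Nrf2 reporter gene, lay below the floor in both genotypes, as did the epoxide hydrolase gene Ephx1, so neither can be compared.

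The efflux pump genes Abcc1 and Abcc4 export glutathione conjugates and other organic anions. Abcc1 was measured on both types with matching ratios, 178 in knockout against 196 in wildtype on the first and 1786 in knockout against 1939 in wildtype on the second, log2 ratios of -0.14 and -0.12. Its mean was -0.13 (SE 0.24, limma adjusted p = 0.931), and 0.54 under spike-in scaling. Abcc4 had a value on the second type alone, 287 in knockout skin against 194 in wildtype skin, a ratio of 0.57.

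The metallothioneins, small cysteine-rich proteins that bind zinc and copper and scavenge oxidants, had the highest ratios of the haem, iron and metal genes on the first type, while on the second Fth1 stood above Mt1. Mt2 read 5288 in knockout skin and 3254 in wildtype skin, a log2 ratio of 0.70 or 1.62-fold. Mt1 read 2268 in knockout skin against 1570 in wildtype skin on the first type, a ratio of 0.53, and 2320 in knockout skin and 1967 in wildtype skin on the second, a ratio of 0.24. The knockout signal was the larger one in all 3 pairs and under all scalings, but the second-type Mt1 probe set carries the same suffix for reduced specificity as that of Me1, and without such probe sets Mt1 has no second-type value. All 3 ratios stayed within 0.79, and the mean for Mt1, 0.38, did not pass the test (SE 0.24, limma adjusted p = 0.590).

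Both promoters are shown because both genes had ratios above 0 and because metallothionein genes are known targets of the zinc-sensing factor MTF1, which binds metal response elements. Capitals mark the cores TGCACNC and TGCGCNC, on both strands. The windows on GRCm38.p6, plus strand, are chr8:94178839-94179138 for Mt1 and chr8:94172368-94172667 for Mt2.
Mt1: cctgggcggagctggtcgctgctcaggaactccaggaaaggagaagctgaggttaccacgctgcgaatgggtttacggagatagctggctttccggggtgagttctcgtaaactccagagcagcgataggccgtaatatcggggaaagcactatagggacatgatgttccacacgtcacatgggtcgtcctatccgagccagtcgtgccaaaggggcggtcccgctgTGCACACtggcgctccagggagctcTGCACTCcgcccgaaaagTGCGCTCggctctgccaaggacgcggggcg
Mt2: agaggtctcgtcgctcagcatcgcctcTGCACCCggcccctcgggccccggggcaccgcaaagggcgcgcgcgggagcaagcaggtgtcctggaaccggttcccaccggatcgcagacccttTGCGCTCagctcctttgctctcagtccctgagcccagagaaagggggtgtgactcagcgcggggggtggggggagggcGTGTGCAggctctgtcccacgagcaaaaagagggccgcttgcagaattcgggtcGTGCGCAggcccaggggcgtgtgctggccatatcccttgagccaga
Mt1 holds 3 matches and Mt2 holds 4. The first core was found in 12.6% of all promoter windows and the second in 15.4%. Mt2 also holds 1 match to TGACNNNGC, beginning at position -79.

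Haem oxygenase 1 (Hmox1), the inducible enzyme that breaks down haem and a widely used stress marker, read 3182 in knockout skin against 3949 in wildtype skin on the first type, a log2 ratio of -0.31 (0.38 under spike-in scaling). The second-type probe set of Hmox1 lay below the floor in both arrays. Macrophages express Hmox1 strongly. The macrophage and leukocyte list had 7 genes above the floor, none past 2-fold, with 4 ratios above 0, 3 below and a median of 0.20. The summed signals of this list over 10 genes were 4824 in knockout skin and 5336 in wildtype skin. Its part in the Hmox1 value was not tested.

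Ferritin heavy chain (Fth1), which stores iron in a safe form, read 6293 in knockout skin against 5730 in wildtype skin on the first type and 3820 in knockout skin and 2936 in wildtype skin on the second. The knockout array was higher on both, with ratios of 0.14 and 0.38, and the mean was 0.26 (SE 0.24, limma adjusted p = 0.794). The second-type probe set has a suffix for sequence shared by a family. The light chain gene Ftl1 had only a probe set shared with the pseudogene Ftl1-ps2 and takes no value. Sqstm1, the autophagy adaptor p62 that can sequester Keap1, read 1008 in knockout skin against 893 in wildtype skin, a ratio of 0.17. Osgin1, a growth inhibitor induced by oxidative stress, lay below the floor.

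For 6 of the 42 genes both array types gave a value above the floor, and 4 of these, Abcc1, Fth1, Mt1 and Sod2, had the same sign on both. Over all 1081 such genes 56.4% had. Under spike-in scaling, which raises every ratio, Gclm and Me1 had the same sign on both types too. The share of all genes with the same sign was not counted under that scaling, so the 56.4% is no background for it. limma compared the genotypes over all 4 arrays, blocked by array type. No antioxidant or redox gene passed, with adjusted p between 0.590 and 0.981, and 1 gene of 1081 did (0.0925%), the transcription factor gene Sox11. At an unadjusted p under 0.05 limma counted 110 genes (10.2%), none of them among the 6. Under spike-in scaling, where 591 of the genes passed, Fth1, Mt1 and Sod2 did too, at means of 0.93, 1.05 and 0.93 (limma adjusted p = 0.0260, 0.0252 and 0.0260). With 1 residual degree of freedom per gene and 13.9 from the prior, these p-values rest mostly on the disagreement between array types pooled over genes, and they measure no known spread between animals.

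**Figure D3:**
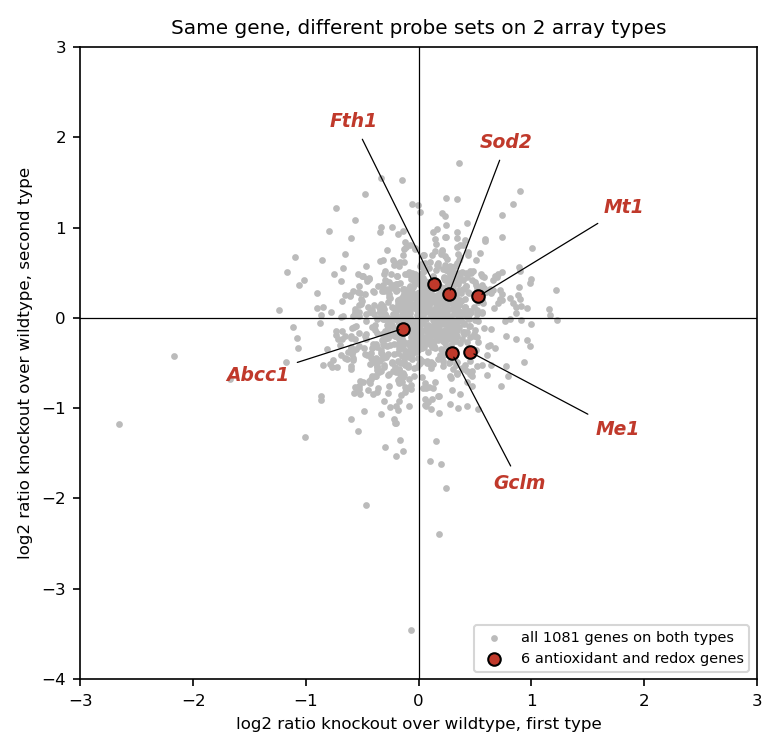
Log2 ratio of knockout over wildtype on the first array type (horizontal) and the second (vertical) for the 1081 genes above the floor on both, in grey, with 6 antioxidant and redox genes in red. Fth1, Sod2 and Mt1 lie at the upper right and Abcc1 in the lower left, while Gclm and Me1 have opposite signs on the types. Spike-in scaling lifts both types by a similar amount and puts Gclm and Me1 above 0 on both, without bringing the types closer.

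The scaling moved these genes together. Under values as deposited, a median set to 0, quantile normalization and loess, all 40 ratios of single genes stayed within 0.40 of those above. Spike-in scaling raised all 40 by more than that, in step with the median gene. Of the 32 genes on the first type 14 were above 0 and 3 below 0 under all 6 scalings, while 15 changed sign. The 3 were Sod3, Srxn1 and Gpx3. The 14 include Cat, by its brighter probe set only. On the second type 4 stayed above 0 (Sod2, Abcc4, Fth1 and Mt1), Slc7a11 stayed below, and 3 changed sign. Because the spike-in shift is common to all genes of a type, these counts mostly follow from the ratios above. They were not made over all genes and mark nothing particular to this list.

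**Figure D4:**
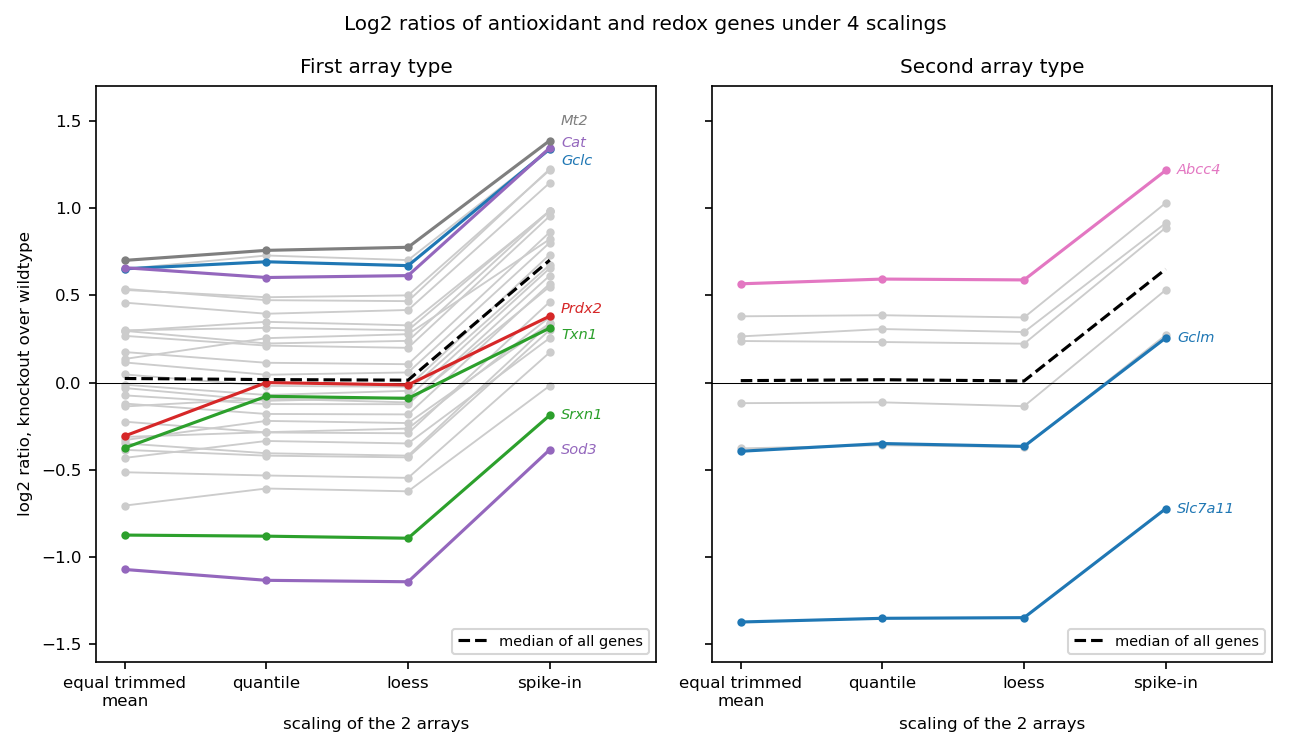
Log2 ratio of knockout over wildtype for each gene above the floor under 4 scalings of the arrays, first type left and second type right. Coloured lines are named genes, grey lines the others, and the dashed line is the median of all genes. Lines run nearly level over the first 3 scalings, except that the bright Txn1 and Prdx2 move towards 0, and all shift up with the median gene under spike-in scaling.

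The promoter windows allowed a description of what the genes share in sequence. RefSeq windows were listed for 35 of the 42 genes. The antioxidant response element core TGACNNNGC stood in at least 1 window of 11 of them (31.4%), against 14% of 27025 genes in the table. The 11 were Srxn1, Gclm, Prdx1, Pgd, Ugdh, Mt2, Me1, Txnrd1, Abcc4, Sod1 and G6pdx. Of the 8 with a match and a first-type value above the floor 4 ratios were above 0 and 4 below, with a median of 0.14 and a range of -0.87 to 0.70. The 18 without a match split 9 and 9, with a median of -0.01 and a range of -0.71 to 0.66. Under spike-in scaling the ratios of both sets were above 0 except those of Srxn1, with a match, and Gpx3, without one. Enhancers further away, which carry known elements of several of these genes, lie outside these windows.

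Other genes of the same pathways showed a similar picture. Of 20 further redox genes above the floor on the first type none passed 2-fold, against 3.02% of all genes. Among them 13 ratios were above 0 and 7 below, with a median of 0.11. The brightest, Ggct, which cleaves gamma-glutamyl amino acids, read 12262 in knockout skin and 17116 in wildtype skin, and glutaredoxin (Glrx) read 9397 in knockout skin against 12745 in wildtype skin. On the second type none of 8 passed, against 5.14% of all genes, with 3 ratios above 0, 5 below and a median of -0.17. Its brightest were Chac1, which degrades glutathione, at 3376 in knockout skin and 3731 in wildtype skin, and the biliverdin reductase Blvrb, at 1475 in knockout skin against 1690.1 in wildtype skin.

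Among genes that produce oxidants, 1 of 5 on the first type and 1 of 3 on the second passed 2-fold, where 3.02% and 5.14% of all genes did. Lists this small cannot be set against those shares. Ncf1, the p47phox subunit of the phagocyte NADPH oxidase, read 123 in knockout skin and 295 in wildtype skin, a log2 ratio of -1.26. Lpo, lactoperoxidase, read 2003 in knockout skin against 57.5 in wildtype skin, below the floor, so it was at least 15.1-fold higher in knockout. Each rests on 1 probe set and 1 array per genotype.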

How the data were processed

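Whole skin RNA of loricrin knockout and wildtype newborns was measured on 4 arrays of 2 types. The deposited array intensity values, on a linear scale, were made by the authors with MAS5, per the submitters' processing notes. Its version and target were not given in the sources used here.

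Arrays of a type were scaled to an equal 2% trimmed mean, and then 66 control probe sets per type were dropped. The floor was the mean of the arrays' 40th percentiles. Genes counted had a mean log2 signal above it. Probe sets naming several genes (396 and 178) or none (1193 and 1652) were not used. Symbols were updated by gene identifier with RefSeq, GRCm38.p6. The replicate number in the labels is the array type, so the block pairs arrays of a type. limma 3.58.1 in R 4.3.3 (lmFit, eBayes, Benjamini-Hochberg) ran on all genes above the floor on both types. The ratio and limma steps were run on simulated data with noise below the spread seen here and the same change on both types. Those runs therefore do not measure how well the steps perform on these arrays. The number of arrays limits the precision.

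The genes and lists were chosen with earlier results of these data known. Every listed gene could be named, with loricrin, sex-linked genes and, from the further redox and oxidant lists, those past 2-fold or otherwise the 2 brightest. Col1a1, Dcn, Krt1, Krt5, Krt14, Krt15, Trp63 and Sox11 were picked as examples after their values were seen. Alternatives covered scaling, floor, probe set choice, fold rule and the block.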

Additional observations from a re-analysis of the deposited data

How the results depend on the processing

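The counts past 2-fold, 1 on each type, were unchanged as deposited, with a median of 0, under quantile normalization and loess, with the floor at the 20th percentile, without a floor, with the median over probe sets and without shared-sequence suffixes. Spike-in scaling, which raises every ratio, gave 7 for the first type and 2 for the second, all higher, where it called 20.1% of all 5628 and 19.7% of all 5110 genes. It put 96.8% and 96.1% of all 2-fold calls on the higher side, where 39.2% and 45.1% stood there under the scaling used. The floor value as pseudocount left 0 on both, and the floor at the 60th percentile left 0 of 4 on the second, where Slc7a11 then lies below the floor. A 1.5-fold rule gave 7 on the first. The list medians became 0.67 and 0.71 under spike-in scaling, and the second was -0.12 without shared-sequence suffixes, over 5 genes.

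limma's count of genes over both types was 8 with a median of 0, 10 under loess, 591 under spike-in scaling, 6 with the floor at the 60th percentile, 7 with the median over probe sets and 8 without suffixes. It was 0 under quantile normalization, with the floor at the 20th percentile, with no floor and with the floor value as pseudocount (unadjusted limma p under 0.05 for 100, 84, 95 and 97 genes). With no replicate block it was 0, and 0 at an unadjusted p. Under spike-in scaling the mean of Abcc1 was 0.54 and of Gclm 0.62, and Fth1, Mt1 and Sod2 passed (limma adjusted p = 0.0260, 0.0252 and 0.0260). These passes include the shift that this scaling gives to genes on both types. Without 1 array type Gclm ranged from -0.39 to 0.30 and Me1 from -0.38 to 0.46. Under the other alternatives adjusted p for the 6 genes ranged from 0.491 to 1.000.

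Of 425 single-gene values under an alternative, 383 moved by less than 0.40, the SD of the log2 ratio between array types. The remaining 42 moved by more, 40 of them under spike-in scaling. The others were Cat (0.23 with the median over probe sets) and Slc7a11 (-0.85).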
